A study of Mus musculus with 8 samples.

Results

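The 10 genes described here encode the machinery through which interleukin-2 (IL-2) reaches the nucleus of a T cell and the brakes on that signal. They were chosen by symbol, and all 10 had a row among the 24421 genes of the deposited count table. The receptor chains are Il2ra, Il2rb and Il2rg, the kinases Jak1 and Jak3, the transcription factors Stat5a and Stat5b, and the feedback genes Cish, Socs1 and Socs2. RNA was sequenced from follicular regulatory T (TFR) cells, a Foxp3-expressing population that enters B cell follicles, of 4 Blimp1-flox and 4 WT libraries. Blimp1-flox libraries came from mice with a floxed Blimp1 allele and Foxp3-cre, and WT libraries from mice labelled wild type. Mice of both genotypes had received peanut with cholera toxin by mouth 2 times, and their spleens were taken 36 days later. CD4+ cells were enriched and then sorted as Foxp3+YFP+ CXCR5+ PD1+. Foxp3-cre is active in all Foxp3-expressing cells and not in TFR cells alone. Whether WT mice carried the Cre, and how many Blimp1 alleles were floxed, is not in the labels. Nor do they tie each library to an animal, so p-values measure only how these libraries vary, which may be technical.

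IL-2 binds weakly to the pair of the beta chain and the common gamma chain, and tightly once the alpha chain (CD25, the product of Il2ra) joins them. JAK1 on the beta chain and JAK3 on the gamma chain then phosphorylate STAT5A and STAT5B, which move to the nucleus and switch on Il2ra itself and the genes of SOCS-type inhibitors. Regulatory T cells rely on IL-2 from other cells. High IL-2 signalling is known to limit TFR cells through Blimp1, the repressor encoded by Prdm1. The comparison addressed how gene expression in TFR cells differs between Blimp1-flox and WT mice. Blimp1 protein is not among these data.

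The promoters of Cish and Il2ra, which had no overlap in level between genotypes, are shown for their sequence at the transcription start. Both windows are from RefSeq (GRCm38.p6, the build of the deposited coordinates) and run from 250 bases before to 50 bases after the start. Capitals mark every match, on either strand, to TTCNNNGAA (the palindromic STAT consensus, in which N is any base) or to GAAAGT (letters contained in the Blimp1 consensus).
Cish, chr9:107296409-107296708, plus strand: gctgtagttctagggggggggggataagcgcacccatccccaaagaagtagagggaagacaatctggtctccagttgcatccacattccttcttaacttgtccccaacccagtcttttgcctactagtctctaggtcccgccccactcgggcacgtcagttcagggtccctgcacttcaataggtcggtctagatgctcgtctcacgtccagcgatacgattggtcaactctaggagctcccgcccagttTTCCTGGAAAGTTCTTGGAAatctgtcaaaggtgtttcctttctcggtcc
Il2ra, chr2:11642542-11642841, plus strand: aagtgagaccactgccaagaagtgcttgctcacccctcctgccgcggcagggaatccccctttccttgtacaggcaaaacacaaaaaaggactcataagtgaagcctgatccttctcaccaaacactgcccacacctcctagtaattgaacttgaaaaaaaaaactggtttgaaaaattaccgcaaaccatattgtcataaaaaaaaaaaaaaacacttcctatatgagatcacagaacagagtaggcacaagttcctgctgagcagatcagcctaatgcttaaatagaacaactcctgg
The Cish window held 2 matches to TTCNNNGAA, TTCCTGGAA at bases 1 to 9 and TTCTTGGAA at bases 12 to 20 counted from the RefSeq start. Its single GAAAGT, at bases 7 to 12, overlaps both. The deposited coordinates start Cish further along, at base 107296689 of chromosome 9, and all these matches lie before that start. Of 32851 mouse promoter windows of 300 bases, 8.30% held at least 1 match to TTCNNNGAA, 0.457% held 2 or more, and 14.3% held GAAAGT. The Il2ra window held neither set of letters. Of the 10 genes 8 had a window, Il2rb and Socs2 having none, and among the other 6 the single match was a GAAAGT at bases -113 to -108 of 1 of the 2 Stat5a windows. A match is a description of letters and does not show binding.

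Library totals ran from 16425538 to 27595939 counts. Levels are given as CPM, the counts of a gene scaled to the TMM-adjusted library total. Prdm1, the targeted gene, fell in Blimp1-flox cells, with 7.52 to 16.6 CPM against 31.8 to 71.0 CPM in WT (edgeR quasi-likelihood log2 fold change -2.14, adjusted p = 0.0203). Its call was lost without Blimp1-flox 1 (adjusted p = 0.103), with no filter on low counts (0.0502) and with a score of B cell markers in the fit (0.989). All 9 T cell and TFR markers, Foxp3, Cxcr5 and Pdcd1 among them, had at least 55.7 CPM in every library, and none differed by edgeR. Foxp3 was called lower by limma-voom, whose calls for the other markers are not given here. Some libraries stood apart. On the first principal component WT 4 lay at -51.8, with WT 1 to 3 between -19.7 and -1.77, and on the second Blimp1-flox 3 lay at -50.8 and all others at -1.62 or above. Summed CPM of 10 B cell markers ran from 204 to 275 in Blimp1-flox and from 232 to 796 in WT, with WT 4 the highest. Of these markers 6 were lower in every Blimp1-flox library than in any WT library, none was called, and none was at 0 in all libraries. Cd22, at 167 to 240 CPM in Blimp1-flox and 167 to 231 CPM in WT, made up most of the sum except in WT 4. Cd79a, which carries the B cell receptor signal, held 2.51 to 4.57 CPM in Blimp1-flox, 122 CPM in WT 4 and 8.72 to 28.1 CPM in the other WT libraries. Summed CPM of 10 pancreatic acinar markers ran from 51.7 to 102 in Blimp1-flox and from 33.1 to 65.2 in WT, with 2 of them higher in every Blimp1-flox library. Summed CPM in Blimp1-flox and in WT was 220 to 331 and 229 to 313 for 5 plasma cell markers, with Sdc1 called higher, 5.0 to 59.6 and 16.7 to 37.0 for 8 myeloid and dendritic markers, and 49.6 to 54.2 and 36.4 to 50.4 for 6 CD8 and NK markers. The part of these other transcripts in the results was not tested, except for a B cell score given beside the results.

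Of the 10 genes, 2 fell in Blimp1-flox cells, Il2ra and Socs2, none rose and 8 did not pass. Over all 12363 genes tested, 0.501% were called in either direction and 0.243% were called lower. Cish also had all Blimp1-flox libraries below all WT libraries without passing the test. Such separation was found in 3 of the 10 genes, each lower, against 8.44% of all tested genes in either direction and 4.69% lower. The median log2 fold change was -0.10 over the 10 genes and 0.0012 over all tested genes. In these bulk samples fewer cells that express a gene and less RNA per cell cannot be told apart. With 1 library left out the number called was 0 without WT 2 or Blimp1-flox 1, 2 or 4, was 1 without WT 3 or WT 4, and was 3 without Blimp1-flox 3. Over all genes tested these fits called 0.16% to 1.01%. In every such fit 3 of the 10 genes had an unadjusted p under 0.05, against 9.98% to 19.3% of all genes tested. DESeq2 and limma-voom each called 3, Cish being the additional gene, and they also called more genes throughout, 3.39% of all genes by DESeq2 and 4.09% by limma-voom.

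**Figure D1:**
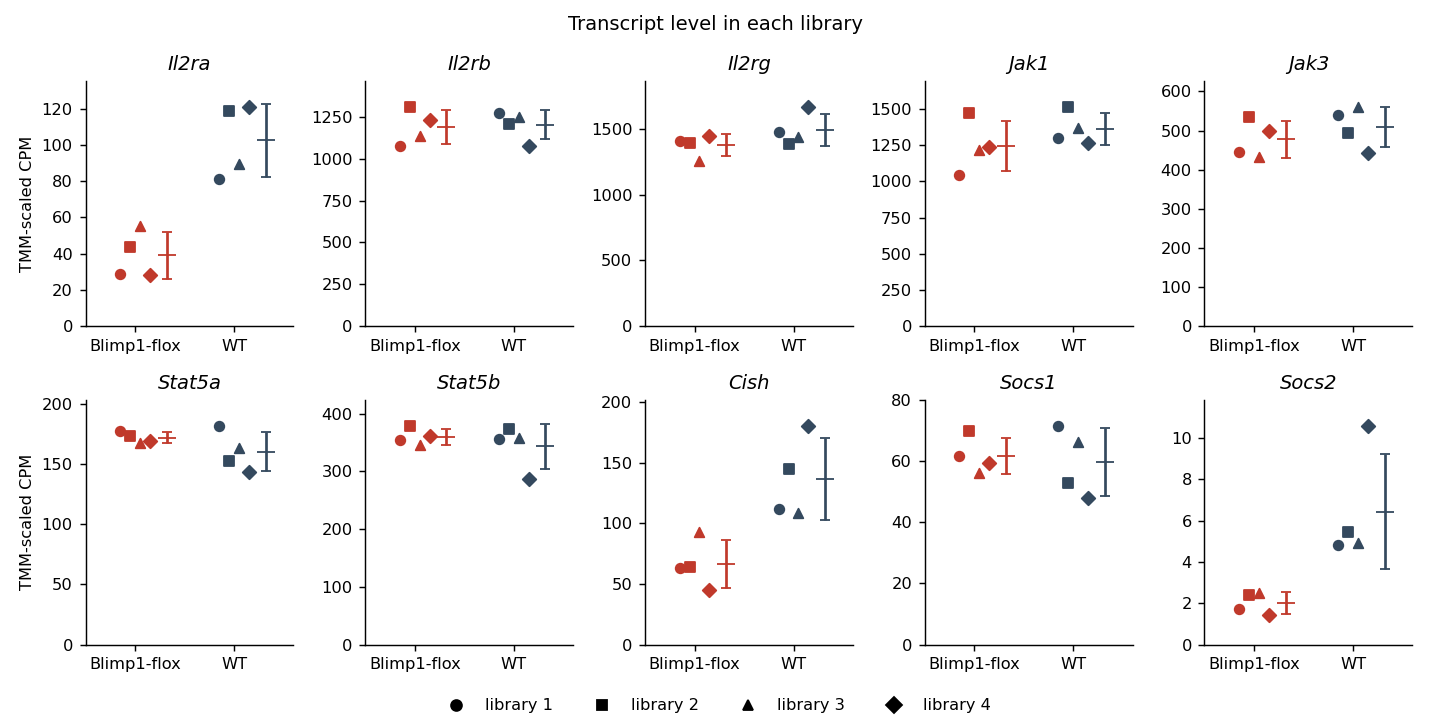
Level of the 10 genes in TMM-scaled CPM (vertical axes, from 0, a scale for each gene) in 4 Blimp1-flox (red) and 4 WT (dark) libraries. Marker shapes give the library number and bars the mean and SD. Il2ra, Cish and Socs2 show no overlap between groups, and the other 7 genes overlap.

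Il2ra encodes the alpha chain of the IL-2 receptor, which sets its affinity and is a hallmark of regulatory T cells. Il2ra held 28.5, 43.8, 55.4 and 28.1 CPM in Blimp1-flox libraries 1 to 4, and 81.2, 118, 89.6 and 121 CPM in WT libraries 1 to 4. The lowest WT library was above the highest Blimp1-flox library. Il2ra averaged 39.0 ± 13.2 CPM in Blimp1-flox and 102 ± 20.0 CPM in WT (SD, n = 4 each). Its level fell 2.62-fold, a log2 fold change of -1.39 ± 0.23 (SE; 95% interval -1.89 to -0.89; edgeR adjusted p = 0.0311). Without WT 4, the library with the most B cell transcripts, the log2 fold change was -1.30 (adjusted p = 0.0416), and without both WT 4 and Blimp1-flox 3 it was -1.52 (adjusted p = 0.0026). The call was lost without WT 2 (adjusted p = 0.105) and without Blimp1-flox 1, 2 or 4 (adjusted p = 0.1005, 0.0564 and 0.0599). In a fit that also held a score of the B cell markers, the log2 fold change of Il2ra was -1.05 and no gene of the table was called by edgeR (551 had an unadjusted p under 0.05). That score and genotype were themselves correlated (squared correlation 0.652).

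The groups overlapped for both signalling chains. Il2rb, the beta chain shared with the IL-15 receptor, held 1078, 1308, 1136 and 1231 CPM in Blimp1-flox and 1274, 1209, 1251 and 1078 CPM in WT. The groups overlapped across their whole range, and the log2 fold change was -0.02 (95% interval -0.22 to 0.19; edgeR adjusted p = 0.944). Il2rg, the common gamma chain, held 1407, 1396, 1254 and 1447 CPM in Blimp1-flox and 1479, 1384, 1442 and 1665 CPM in WT. Its log2 fold change was -0.12 (95% interval -0.31 to 0.08; adjusted p = 0.549). Per kilobase of exon, Il2ra stood at 1.61, 2.04, 2.97 and 1.39 transcript units for every 100 of Il2rb in Blimp1-flox, and at 3.88, 5.96, 4.36 and 6.81 in WT. The ratio was 2.67-fold lower in Blimp1-flox, and the groups did not overlap. This ratio was chosen after the values were seen. It is given as a description, without the p-value of a permutation test run on it. Il2ra made up 0.695% ± 0.264 of the summed per-kilobase level of the chains in Blimp1-flox and 1.70% ± 0.338 in WT (SD, n = 4 each).

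**Figure D2:**
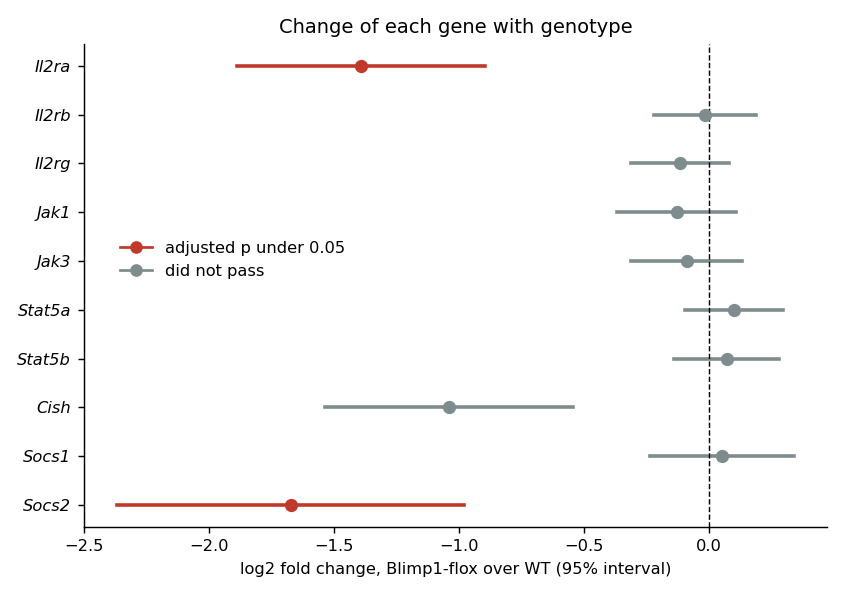
Log2 fold change of each gene, Blimp1-flox over WT (horizontal axis), with its 95% interval from the edgeR fit. Red genes passed at an adjusted p under 0.05. The intervals of Il2ra, Cish and Socs2 lie below 0, and those of the other 7 genes span 0.

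The kinases and STAT genes overlapped between genotypes. Jak1, the kinase carried by the beta chain, averaged 1244 ± 176 CPM in Blimp1-flox and 1360 ± 110 CPM in WT (log2 fold change -0.13, 95% interval -0.37 to 0.11). Jak3, the kinase of the gamma chain, averaged 478 ± 47.9 CPM in Blimp1-flox and 509 ± 51.7 CPM in WT (log2 fold change -0.09, 95% interval -0.31 to 0.13). Exons of Jak1 overlap Raver2 and exons of Jak3 overlap Insl3, so their counts are uncertain, although Raver2 and Insl3 themselves held at most 2.52 and 3.47 CPM. Stat5a held 178, 173, 167 and 169 CPM in Blimp1-flox and 182, 153, 163 and 144 CPM in WT. Stat5b held 355, 379, 347 and 361 CPM in Blimp1-flox and 356, 374, 357 and 286 CPM in WT. In both STAT5 genes WT 4 was the lowest of the 8 libraries. Their log2 fold changes were 0.10 (95% interval -0.10 to 0.30) for Stat5a and 0.07 (-0.14 to 0.28) for Stat5b. The edgeR adjusted p of these 4 genes ran from 0.589 to 0.755. Stat5a and Stat5b are near-identical neighbours on chromosome 11, 8765 bases apart, and reads common to both can be dropped or split by the counting.

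Of the feedback genes Socs2 passed the test, and Cish and Socs1 did not. Socs2, an SH2-domain inhibitor best known for restraining growth hormone signalling, held 1.70, 2.41, 2.48 and 1.45 CPM in Blimp1-flox and 4.80, 5.44, 4.92 and 10.6 CPM in WT. All Blimp1-flox libraries lay below all WT libraries, and WT 4 stood far above the other WT libraries. Socs2 fell 3.19-fold, a log2 fold change of -1.67 ± 0.32 (SE; 95% interval -2.37 to -0.98; edgeR adjusted p = 0.0418). These levels rest on 28 to 69 counts in a Blimp1-flox library and 112 to 284 in a WT library. Without WT 4 the log2 fold change of Socs2 was -1.32 and the call was lost (adjusted p = 0.0548). The Socs2 call was also lost without WT 2 or 3 (0.104 and 0.0545) and without Blimp1-flox 1, 2 or 4 (0.148, 0.0681 and 0.1705), and beside the B cell score its log2 fold change was -0.67.

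Cish encodes CIS, an inhibitor that STAT5 induces and that binds to activated cytokine receptors. Cish held 63.3, 64.3, 92.9 and 44.7 CPM in Blimp1-flox and 112, 145, 108 and 181 CPM in WT. The groups did not overlap, with Blimp1-flox 3 closest to WT. The log2 fold change of Cish was -1.04 ± 0.22 (SE; 95% interval -1.53 to -0.55), short of the threshold (edgeR adjusted p = 0.0820). It passed without Blimp1-flox 3 (-1.25, adjusted p = 0.0172), without both WT 4 and Blimp1-flox 3 (-1.09, 0.0079), by DESeq2 (-1.04, 9.2e-05) and by limma-voom (-1.19, 0.0069). The adjusted p of Cish lay between 9.2e-05 and 0.996 over 19 alternatives. Without WT 4 the log2 fold change of Cish was -0.88, and beside the B cell score it was -0.55.

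Socs1, the inhibitor that blocks JAK kinases directly, held 61.7, 69.8, 55.9 and 59.2 CPM in Blimp1-flox and 71.4, 52.8, 66.3 and 47.8 CPM in WT. Its groups overlapped widely (log2 fold change 0.05, 95% interval -0.24 to 0.34; edgeR adjusted p = 0.888). Per library, the ratio of Socs2 to Socs1 was 3.24-fold lower in Blimp1-flox, and that of Cish to Socs1 was 2.18-fold lower with overlap between groups. Both ratios were likewise chosen after the values were seen. They are given as a description, without the p-values of a permutation test run on them.

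The genes that separated the genotypes also ordered the libraries alike within each genotype. From lowest to highest, the Blimp1-flox libraries ran 4, 1, 2, 3 for Il2ra, for Cish and for Socs2. The WT libraries ran 1, 3, 2, 4 for Il2ra and Socs2, and 3, 1, 2, 4 for Cish. None of the other 7 genes had either order. The order was not particular to these genes, since the first principal component of all tested genes (33.1% of the variance) ran as Il2ra and Socs2 did. It fell from 30.9, 29.3, 16 and 9.73 in Blimp1-flox 4, 1, 2 and 3 to -1.77, -12.7, -19.7 and -51.8 in WT 1, 3, 2 and 4. WT 4 was the highest WT library for 4 of the 10 genes, Il2ra, Il2rg, Cish and Socs2, and the lowest for the other 6. Blimp1-flox 3 was the highest of its group for Il2ra, Cish and Socs2, and the lowest for 5 genes, Il2rg, Jak3, Stat5a, Stat5b and Socs1. The libraries that stood apart on the principal components were therefore those at the ends of both orders, and with only 4 libraries a genotype the shared order is a description. Spread within a genotype was also larger for Il2ra, Cish and Socs2 than the median over all tested genes. The coefficient of variation was 33.8%, 30.0% and 25.6% in Blimp1-flox and 19.5%, 24.7% and 43.2% in WT for Il2ra, Cish and Socs2. Its median over all tested genes, whatever their level, was 13.7% in Blimp1-flox and 13.9% in WT. Socs1 in WT, at 18.7%, and Jak1 in Blimp1-flox, at 14.1%, also lay above it. Socs2 rests on few counts, and in WT its spread comes largely from WT 4, at 10.6 CPM against 4.80 to 5.44 CPM.

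**Figure D3:**
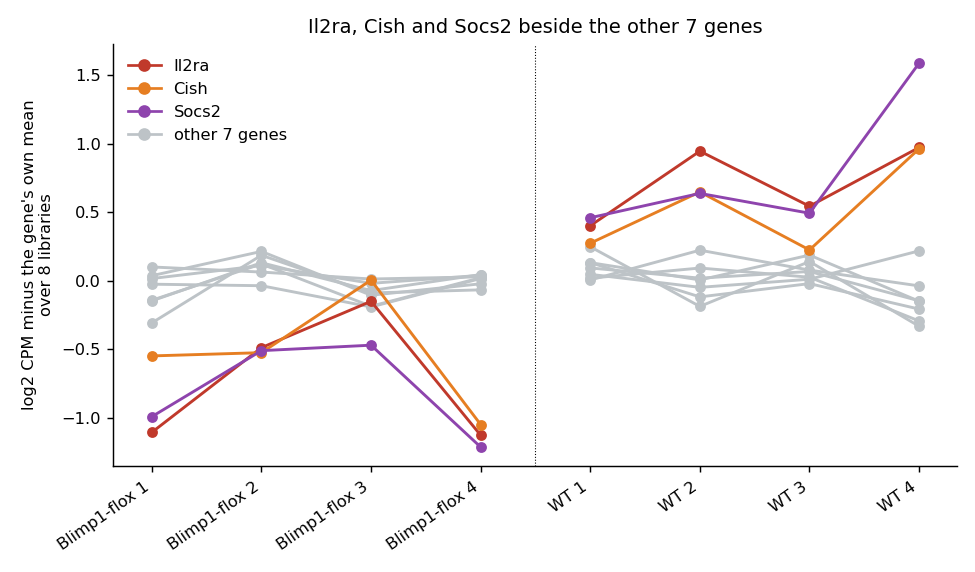
Log2 CPM of each gene minus its own mean over the 8 libraries (vertical axis), by library. Lines link the values of a gene and give the libraries no order. Il2ra, Cish and Socs2 are lowest in Blimp1-flox 4 and highest in WT 4, while the other 7 genes stay near 0.

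Per kilobase of exon (RPKM), the order of levels in Blimp1-flox was Il2rg, Il2rb, Jak1, Jak3, Stat5b, Socs1, Stat5a, Cish, Il2ra and Socs2. Il2rg averaged 827 ± 50.7 RPKM in Blimp1-flox and 897 ± 72.8 RPKM in WT (SD, n = 4 each), and Socs2 averaged 0.745 ± 0.191 RPKM in Blimp1-flox and 2.39 ± 1.03 RPKM in WT. Cish averaged 30.7 ± 9.20 RPKM in Blimp1-flox, rank 8, and 63.1 ± 15.6 RPKM in WT, rank 5. In Blimp1-flox, Socs1 and Stat5a, at 46.0 and 44.2 RPKM, did not differ beyond their spread, and the ranges of Stat5a and Cish overlapped. In WT, Cish and Stat5b, both at 63.1 RPKM, did not differ beyond their spread, nor did Socs1 and Stat5a, at 44.5 and 41.2 RPKM, and the ranges of Stat5b and Socs1 overlapped. All other neighbours in either order had ranges that did not overlap. These levels divide by the summed exon length of a gene, which may exceed the length of the transcript the cells use.

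**Figure D4:**
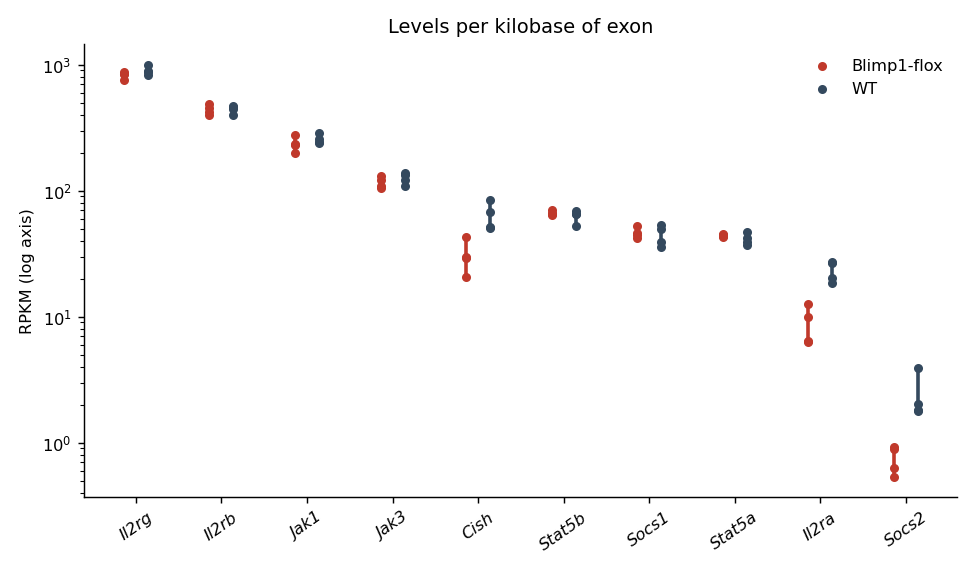
Level per kilobase of exon (RPKM, log axis) of the 10 genes, ordered by their WT mean, in Blimp1-flox (red, left) and WT (dark, right). Points are libraries and lines their range. Il2ra and Socs2 are the lowest 2 genes in WT, and Il2rg is the highest in both genotypes.

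Of 60 other genes of the pathway, 56 were tested, and 1 fell, none rose and 55 did not pass. Over all tested genes 0.501% were called. The median log2 fold change of the 56 was -0.12, with 40 negative and 16 positive, against 49.9% negative over all tested genes. Groups did not overlap for 4 of the 56 that were lower and 3 that were higher in Blimp1-flox. Over all tested genes 8.44% did not overlap in either direction. Among the 5 other subunits that pair with the gamma chain, Il4ra, the IL-4 receptor chain that signals through STAT6, fell 1.51-fold. Il4ra held 88.8, 92.8, 101 and 78.1 CPM in Blimp1-flox and 132, 149, 132 and 131 CPM in WT (edgeR adjusted p = 0.0203). The groups did not overlap, and WT 4 was the lowest WT library. The Il4ra call was lost without WT 2 (adjusted p = 0.0864) and without Blimp1-flox 1 or 4 (0.0683 and 0.1004). Il15ra, the alpha chain of the IL-15 receptor, and Il21r, the IL-21 receptor, also had no overlap between groups, with log2 fold changes of -0.36 and -0.32, and did not pass (edgeR adjusted p = 0.137 and 0.167).

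Ligand transcripts were scarce or did not pass. Il2 itself held 0.122 to 0.324 CPM in Blimp1-flox and 0.0432 to 0.282 CPM in WT, below the filter on low counts, Il15 was below it too, and Il9 had no count in any library. Il4, Il7 and Il21 had log2 fold changes of 0.40, 0.50 and 0.57 (edgeR adjusted p = 0.403, 0.654 and 0.184). None of 7 other JAK and STAT genes passed (median log2 fold change -0.12), nor any of 16 other inhibitors (median -0.12). In the Ras and PI3K branch none of 13 passed (median -0.03). Shc1 and Akt1 of this branch were higher in every Blimp1-flox library than in any WT library. Their log2 fold changes were 0.25 and 0.14 (edgeR adjusted p = 0.250 and 0.400). There Syk, a kinase abundant in B cells, did not pass at -3.25 on the log2 scale (edgeR adjusted p = 0.256), with 0 to 2.61 CPM in Blimp1-flox, 33.4 CPM in WT 4 and 3.07 to 9.52 CPM in the other WT libraries.

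Of 13 genes described as STAT5 targets, 12 were tested and none passed (median log2 fold change -0.26, 9 negative and 3 positive). Pim2, a survival kinase, was above all WT libraries in every Blimp1-flox library, at 196 ± 19.6 CPM in Blimp1-flox and 129 ± 23.6 CPM in WT (SD, n = 4 each; edgeR log2 fold change 0.60, adjusted p = 0.0579). Its relative Pim1 averaged 97.0 ± 33.2 CPM in Blimp1-flox and 156 ± 85.4 CPM in WT (log2 fold change -0.69, adjusted p = 0.413). Foxp3, whose exons overlap 2 other genes, averaged 65.9 ± 8.14 CPM in Blimp1-flox and 86.9 ± 13.4 CPM in WT (log2 fold change -0.40, adjusted p = 0.176). The survival genes Bcl2 and Mcl1 had log2 fold changes of 0.05 and -0.17 (edgeR adjusted p = 0.840 and 0.331). Gzmb, the granule protease granzyme B, was below the filter, with 0 to 0.182 CPM in Blimp1-flox and 0.242 to 6.79 CPM in WT, the highest in WT 4.

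**Figure D5:**
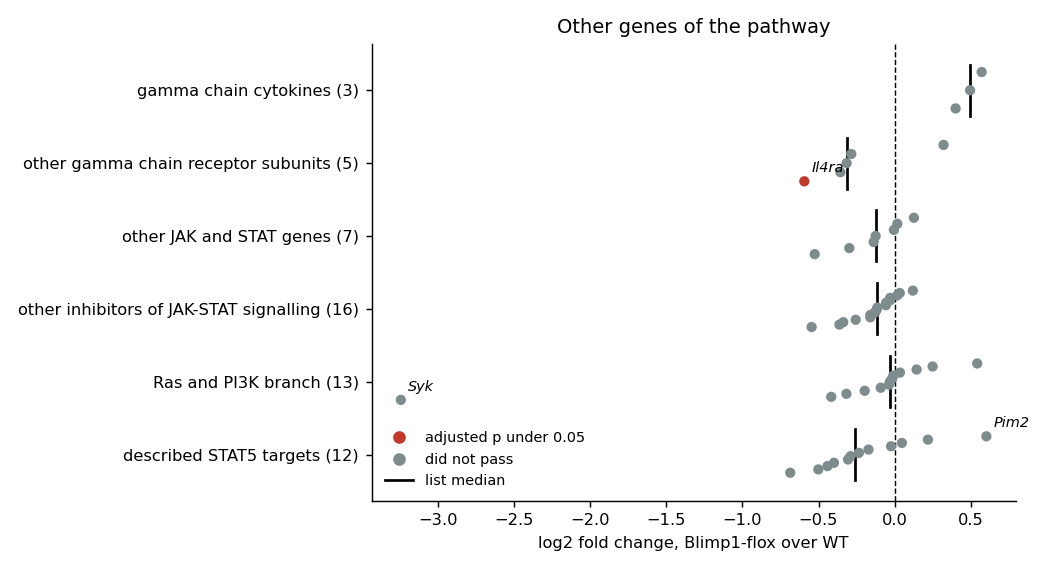
Log2 fold change, Blimp1-flox over WT (horizontal axis), of the 56 tested genes in the lists of the pathway (rows, with the number tested). Points are genes, red where the adjusted p was under 0.05, and black bars are list medians. Il4ra is the 1 red point, at -0.59.

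The genes whose profile over the 8 libraries was nearest to that of Il2ra were Tacc2, Ppp3ca and Gpr55, at a root mean square difference of 0.20, 0.24 and 0.26 in centred log2 CPM, against a median of 0.82 over 10258 candidate genes. Tacc2 encodes a centrosomal coiled-coil protein, Ppp3ca the catalytic subunit of calcineurin and Gpr55 a lipid receptor. Tacc2 and Ppp3ca were also the nearest to Socs2, at 0.12 and 0.18, followed by Ctla2a, at 0.25. Nearest to Cish were Gsta4, Marcks and the cytotoxic granule gene Nkg7, at 0.12, 0.16 and 0.16. Tacc2 averaged 3.81 ± 1.14 CPM in Blimp1-flox and 11.6 ± 4.10 CPM in WT (SD, n = 4 each). All these genes were picked as the nearest, so a distance below the median was fixed by the choice. Centring over the 8 libraries kept the difference between genotypes, so genes that shared it were favoured. Shared regulation was not tested.

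For Il2ra, Socs2 and Cish the nearest tested gene on each side of the chromosome was named by position. Genes that were not tested were passed over and may lie between. Il2ra lies on chromosome 2 from 11642792 to 11693194 in mm10, with Rbm17 on one side and Il15ra 12098 bases away on the other. Rbm17, a splicing factor, averaged 116 CPM in Blimp1-flox and 119 CPM in WT (log2 fold change -0.03, edgeR adjusted p = 0.900), and Il15ra had the -0.36 given above. Socs2 lies on chromosome 10 from 95411490 to 95416857, between Cradd and Mrpl42, whose log2 fold changes were -0.18 and 0.19 (adjusted p = 0.631 and 0.458). Cish lies on chromosome 9 from 107296689 to 107301961, between Mapkapk3 and Hemk1. Mapkapk3, 6811 bases away, had a log2 fold change of 0.03 and Hemk1 one of -0.52, with no overlap between its groups, and neither passed (adjusted p = 0.879 and 0.176).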

How the data were processed

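The 8 libraries were made from total RNA of sorted cells with an mRNA kit, per the labels' protocols. The submitters' processing notes list STAR 2.5.2b, featureCounts, Subread 1.5.1 and the build mm10. The authors deposited raw counts per gene, without normalization, and, per the file headers, gene coordinates and exon lengths in bases. The annotation and strand setting are not given in the sources used here, and genes with overlapping exons are uncertain.

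From the deposited counts, genes were kept with filterByExpr (12363 of 24421) and libraries scaled by TMM, with factors of 0.976 to 1.02. Genotype was tested with edgeR 4.0.16 (R 4.3.3; robust quasi-likelihood F test, genotype alone), with Benjamini-Hochberg adjustment over all tested genes and a call at an adjusted p under 0.05. Intervals follow from the F statistic. CPM and RPKM use the TMM-scaled totals. DESeq2 1.42.0, limma 3.58.1, other scalings and filters, a replicate block, a B cell score and libraries left out were alternatives, and the fits were tested on simulated data. Likeness of profiles used log2 CPM, prior count 2. The genes named were the 10 members, called genes of the pathway lists, Prdm1, cell type markers, and the 3 nearest profiles, and others were named after their values were seen. The members, lists and rules were chosen with earlier results of these data known. Libraries of a group differed by more than sampling noise (mean chi-square per gene of at least 16.6).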

Additional observations from a re-analysis of the deposited data

Results flagged for a closer look

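Socs2 in WT 4, at 10.6 CPM, lay far from the other WT libraries, which held 4.80 to 5.44 CPM. Of 20 sets of 4 libraries examined it was the only one to stand out so, and chance singles out about 1 in 20. WT 4 also held the most B cell transcripts (796 CPM summed over 10 markers, against 232 to 349 in the other WT libraries), and their part in this value was not tested. Without WT 4 the log2 fold change of Socs2 was -1.32, in place of -1.67.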

How the results depend on the processing

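Il2ra, Cish and Socs2 kept a negative fold change under all 19 alternatives, with log2 fold changes from -1.61 to -1.05, -1.25 to -0.55 and -1.79 to -0.67. With 4 libraries a genotype and 28 counts of Socs2 in the shallowest library, small changes were not detectable. Genes called over all genes numbered 62, against 457 in DESeq2, 506 in limma-voom with quality weights, 157 without both WT 4 and Blimp1-flox 3, 182 at an adjusted p under 0.1, 0 with the B cell score in the fit (551 at an unadjusted p under 0.05), and 20 to 127 with 1 library left out (127 without WT 1, 94 without Blimp1-flox 3, and 27, 23 and 20 without WT 2, Blimp1-flox 4 and Blimp1-flox 1). Of the 10 genes, 0 were called with the B cell score (1 at an unadjusted p under 0.05) and 0 to 3 with 1 library left out. Of the other pathway genes 1 was called, against 2 with library totals only, with no filter or at an adjusted p under 0.1, 4 in DESeq2, 5 in limma-voom (in each of these Pim2 was the 1 called higher), 0 with the B cell score (3 at an unadjusted p under 0.05) and 0 to 3 with 1 library left out.

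The labels do not say that same-numbered libraries belong together, and their deviations correlated at 0.10, 0.15, -0.10 and -0.11 for numbers 1 to 4, so no pairing was taken. Of 4 libraries each, 2 Blimp1-flox and 1 WT correlated best with their own number. With a replicate block 52 genes were called, 1 of the 10 genes, Il2ra (log2 fold change -1.43, adjusted p = 0.0458), and 1 pathway gene. Socs2 then had a log2 fold change of -1.61 (adjusted p = 0.0887).

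With 1 library left out Il2rb ran from -0.070 to 0.025, Stat5b from -0.0085 to 0.11 and Socs1 from -0.044 to 0.15. Near 0 some uncalled genes turned sign, and the cause was not tested. Il2rb had 0.0095, 0.025 and 0.0041 without WT 1, Blimp1-flox 1 and Blimp1-flox 3. With the B cell score Il2rg had 0.027, Stat5a -0.046, Stat5b -0.15 and Socs1 -0.14. Stat5b had -0.0085 without WT 4. Socs1 had -0.020 in limma-voom, -0.0037, -0.044 and -0.019 without WT 2, WT 4 and Blimp1-flox 2, and -3.3e-04 without both WT 4 and Blimp1-flox 3. The 3 ratios kept their sign with each library left out. Mean levels of the 10 genes with library totals only moved by less than 1 SD.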
